A study of Caenorhabditis elegans with 8 samples.

Results

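The 47 genes described here encode the machinery that builds and maintains the sensory cilia of Caenorhabditis elegans. They were chosen by name as known cilium genes and matched to WormBase gene identifiers by symbol. All 47 were found among the 46748 identifiers in the count files, and all 47 passed the filter on low counts and lay among the 12664 genes tested. By role they comprise 6 motor genes, 4 genes of intraflagellar transport (IFT) complex A, 14 of IFT complex B, 7 of the BBSome, 8 of the transition zone and 8 regulators, small GTPases and other proteins.

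In this animal cilia are borne only by sensory neurons, at the tips of their dendrites, and they are assembled in the embryo after those neurons have been born. Kinesin motors carry trains of IFT-A and IFT-B particles to the ciliary tip and a dynein returns them, the BBSome links membrane cargo to the trains, and the transition zone at the ciliary base gates what enters. The RFX-type transcription factor DAF-19 activates many of these genes through a promoter element called the X-box.

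The libraries were made from poly(A) RNA of whole late embryos in 2 strains, with 4 biological replicates each. In the 3A strain the endogenous gene lin-52 carries allele bn151, in which the LIN-52 protein has the substitutions L42A, C44A and E46A (residues numbered from the protein's first) and a GFP and 3xFLAG tag. In the WT strain allele bn139 carries the same tag without the substitutions, so the controls are tagged as well. LIN-52 is a subunit of MuvB, the core of the DREAM repressor complex, and the comparison asked which genes are misexpressed once the pocket protein LIN-35 no longer associates with MuvB. Adults came from 72 h of liquid culture, and the embryos were held for at most 3.5 h after bleaching, so the span of stages within a library is not known.

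Depth was 17346339 to 29101114 counts in genes in the 3A libraries and 14667743 to 68040557 in the WT libraries. Ribosomal RNA genes took 1.75% to 40.7% of the counts in 3A and 0.720% to 3.24% in WT. WT replicate 1 stood apart. It held the highest level of the 8 libraries for 26.6% of all genes tested and the lowest for 25.1%, and each log2 fold change of a single gene given below that moves by over 1.5 times without it is also given without it. The mutated gene itself averaged 6.86 ± 2.66 CPM (gene counts divided by the TMM-scaled depth of each library) in 3A and 6.78 ± 3.81 CPM in WT (SD, n = 4 each), and the substitutions cannot be seen in gene counts. The libraries hold whole embryos, so fewer ciliated cells and less RNA per cell cannot be told apart in any value below.

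None of the 47 cilium genes differed between 3A and WT embryos at an adjusted p-value under 0.05 by the quasi-likelihood test of edgeR, with adjustment over the whole table, and the smallest adjusted p was 0.481. Over all genes tested 0.371% were called, and 0.0158% were called as lower in 3A, so a count of 0 among 47 is near the background. Before adjustment 2 of the 47, or 4.26%, fell under 0.05, both lower in 3A, against 9.75% of all genes tested and 4.03% counting those lower in 3A. With DESeq2 0 of the 47 were called, and 2 fell under 0.05 before adjustment. The groups overlapped for all 47 genes, while they did not overlap for 6.16% of all genes tested, or 2.36% counting those lower in 3A.

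The estimated log2 fold changes ran from -1.12 to 0.48 and were mostly negative. The log2 fold change of 3A over WT was negative for 37 of the 47 genes and positive for 10, and its median was -0.29. Over all genes tested 57.2% were negative and the median was -0.08, which places the cilium median 0.20 lower. Without WT replicate 1 the cilium median was -0.22, 35 of 47 were negative, and the median of all genes was -0.02, a gap of 0.20 again. The gap was smallest without WT replicate 3, at 0.10. These are descriptions of the list, whose genes share libraries and are not replicates.

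**Figure D1:**
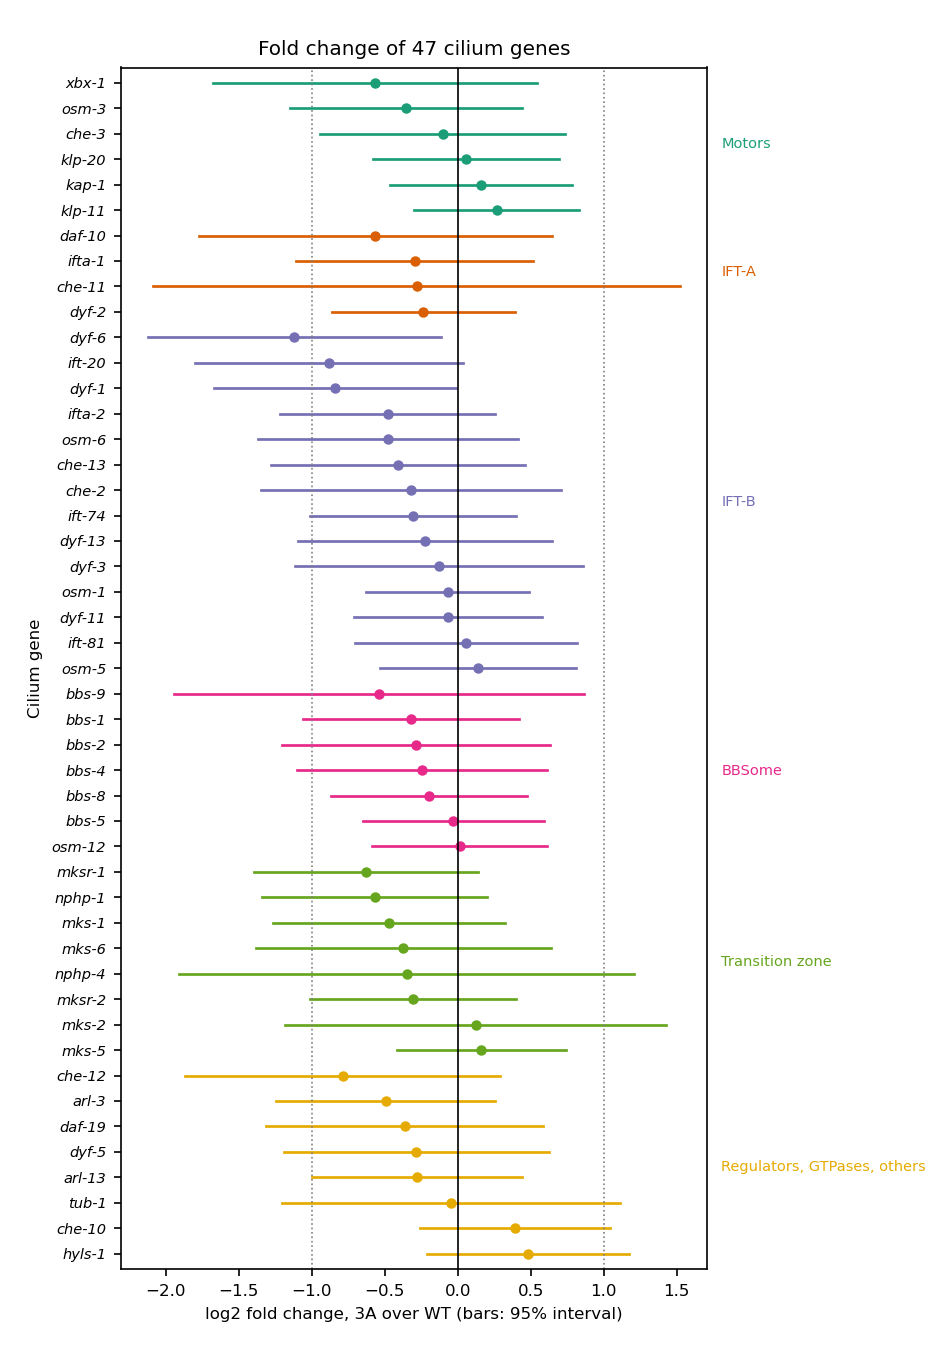
log2 fold change of 3A over WT (x axis) for each of the 47 cilium genes (y axis), grouped and coloured by role. Points are edgeR estimates, bars their 95% intervals, and dotted lines mark a change of 1 on the log2 scale in each direction; 37 points lie left of 0, and 2 intervals, those of dyf-6 and dyf-1, leave out 0 before adjustment for multiple testing.

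The precision differed between genes. The standard error (SE) of the log2 fold change ranged from 0.26 to 0.83, with a median of 0.36. The 95% interval excluded a 2-fold rise for 41 of the 47 genes, a 2-fold fall for 15, and both for 13. For the other 34 genes a 2-fold difference in at least 1 direction was therefore not excluded at this depth and spread between replicates. In data simulated independently for each gene with the fitted spread, the test called 4 of 100 genes with a 2-fold change. Those genes were picked from all genes tested, not from the cilium list. Shifts shared by many genes of a library were not simulated.

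Levels were low and spanned a wide range. The mean over the 8 libraries lay under 1 CPM for 9 of the 47 genes and above 10 CPM for another 9. Per kilobase of exon, the scale on which genes can be compared, the median cilium gene lay at the 26.6th percentile of the genes tested. The highest level was that of mksr-2, a transition zone gene of the B9 family, at 27.5 ± 6.91 CPM per kb in 3A and 34.0 ± 12.998 CPM per kb in WT (SD, n = 4 each). The IFT-B gene dyf-3 followed at 28.4 ± 12.2 CPM per kb in 3A and 31.1 ± 18.6 CPM per kb in WT, a difference from mksr-2 within the spread of either gene. The lowest was che-3, the heavy chain of the ciliary dynein, at 0.0690 CPM per kb in 3A and 0.0742 CPM per kb in WT. Annotated exon lengths are those of Ensembl, and transcripts actually present in embryos may be shorter.

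**Figure D2:**
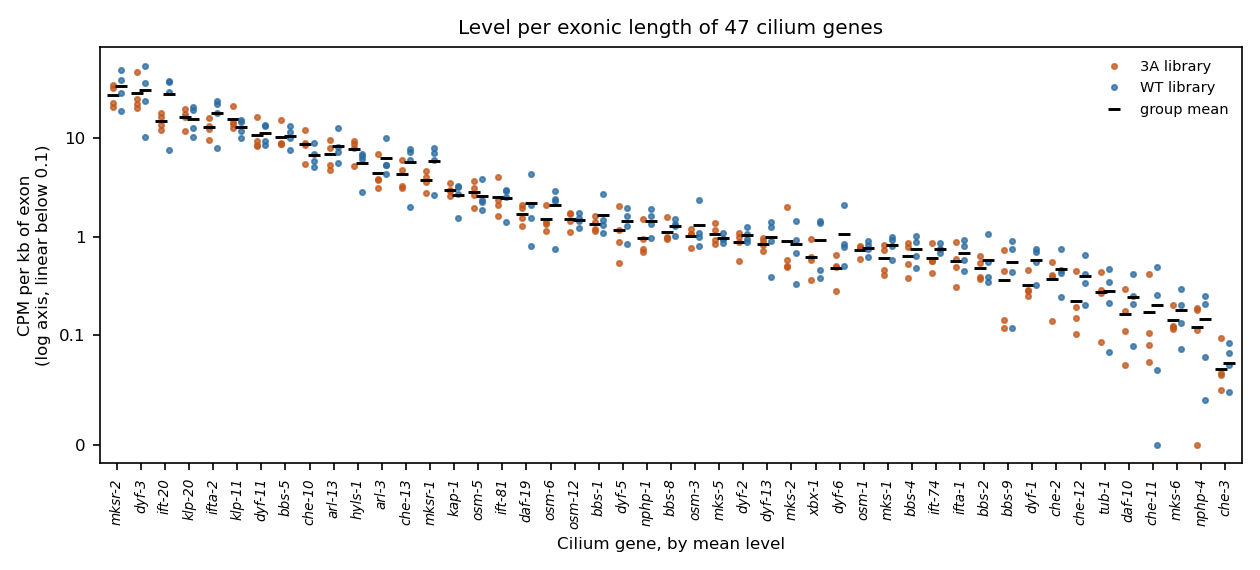
Level per exonic length (y axis, CPM per kb of exon, log axis that is linear below 0.1) of the 47 cilium genes (x axis, ordered by mean level). Orange points are 3A libraries, blue points WT libraries and black dashes group means; the group means of each gene lie close together beside the range between genes, from che-3 at the right to mksr-2 at the left.

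Among the motors, 3 genes had positive and 3 negative log2 fold changes, with a median of -0.02. osm-3, which encodes the homodimeric kinesin that builds the distal segment, was measured at 3.57, 3.23, 3.19 and 2.29 CPM in 3A replicates 1 to 4, against 7.07, 2.97, 2.45 and 3.32 CPM in WT replicates 1 to 4. WT replicate 1 was the highest library and the other 7 lay together. Its log2 fold change was -0.36 (SE 0.36, adjusted p of 0.788 by edgeR), and it was 0.11 without WT replicate 1. The heterotrimeric kinesin-II of the proximal segment was more abundant. Its motor subunit gene klp-11 had 35.5, 51.1, 30.3 and 33.8 CPM in 3A, against 28.6, 35.1, 24.5 and 37.2 CPM in WT, a log2 fold change of 0.27 (SE 0.26, adjusted p of 0.775 by edgeR). The other motor subunit gene, klp-20, had the highest level of the motors per length, 16.3 ± 3.21 CPM per kb in 3A and 15.7 ± 5.06 CPM per kb in WT (SD, n = 4 each). The accessory subunit gene kap-1 averaged 7.001 ± 0.857 CPM in 3A and 6.26 ± 1.88 CPM in WT. The dynein light intermediate chain gene xbx-1 had 0.463, 1.195, 0.798 and 0.733 CPM in 3A, against 0.479, 1.77, 1.84 and 0.581 CPM in WT (log2 fold change -0.57, SE 0.51, adjusted p of 0.754 by edgeR). WT replicates 2 and 3 were its highest libraries, and the other WT libraries lay within the 3A range.

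All 4 IFT-A genes had negative log2 fold changes, from -0.57 to -0.24, and none passed the test. IFT-A is needed for the return of trains from the tip. daf-10 had 0.396, 1.08, 0.266 and 0.641 CPM in 3A, against 0.330, 0.912, 1.52 and 0.747 CPM in WT, and the groups overlapped over most of their range (log2 fold change -0.57, SE 0.55, adjusted p of 0.775 by edgeR). The value was -1.13 without 3A replicate 2 and -0.13 without WT replicate 3. dyf-2, the IFT-A gene with the highest level per length, had 3.70, 4.11, 2.39 and 4.58 CPM in 3A, against 5.27, 3.70, 4.00 and 4.40 CPM in WT (log2 fold change -0.24, SE 0.29, adjusted p of 0.826 by edgeR; -0.12 without WT replicate 1). ifta-1 had 1.19, 3.39, 1.89 and 2.29 CPM in 3A, against 2.28, 3.11, 3.61 and 1.74 CPM in WT (log2 fold change -0.30, SE 0.37, adjusted p of 0.832 by edgeR). For che-11 the interval was the widest of the 47, from -2.09 to 1.52, and WT replicate 4 held 0 counts of it.

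IFT-B, the complex that drives outward transport, held the largest negative changes. Of its 14 genes 12 had a negative log2 fold change, with a median of -0.31. The 3 with the smallest p-values were dyf-6, dyf-1 and ift-20, and they differed in which WT libraries set the change. dyf-6 had 1.12, 1.51, 1.16 and 0.641 CPM in 3A, against 4.88, 1.82, 1.95 and 1.16 CPM in WT. WT replicate 1 was the highest, WT replicates 2 and 3 lay just above the 3A range and WT replicate 4 within it. The log2 fold change was -1.12 (SE 0.46, adjusted p of 0.481 by edgeR), and -0.55 without WT replicate 1. dyf-1, which the motor OSM-3 requires to move IFT particles, had 0.793, 1.46, 0.897 and 0.916 CPM in 3A, against 1.02, 2.38, 2.22 and 1.74 CPM in WT. Here 15 of the 16 pairs of a 3A and a WT library were lower in 3A (log2 fold change -0.84, SE 0.38, adjusted p of 0.511 by edgeR).

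ift-20 showed the opposite pattern in WT replicate 1. It had 6.28, 7.55, 8.34 and 5.59 CPM in 3A replicates 1 to 4, against 3.48, 17.4, 13.5 and 17.2 CPM in WT replicates 1 to 4. WT replicate 1 was thus the lowest library of all and the other 3 WT libraries lay above every 3A library. The log2 fold change was -0.89 (SE 0.42, adjusted p of 0.529 by edgeR). Without WT replicate 1 it was -1.18 (SE 0.23, adjusted p of 0.0246 by edgeR), and ift-20 was then the only cilium gene called, 1 of 47 against 1.49% of the genes tested, or 0.403% counting those lower in 3A. It was not called in any other setting, including the fit without replicate 1 of both strains, where the adjusted p by edgeR was 0.0694. In the same fit without WT replicate 1, 7 of the 47 cilium genes, or 14.9%, had an unadjusted p-value under 0.05 by edgeR, all lower in 3A. Over all genes tested the share was 22.2%, which counts both directions and is therefore no direct background for genes lower in 3A. The share of all genes lower in 3A at that threshold was not computed for this fit. Whether the cilium share lies above or below it is therefore not known. The 7 were ift-20, ifta-2, dyf-1, che-13 and osm-6 of IFT-B, the transition zone gene mksr-1 and the cilium gene che-12. The small GTPase gene ifta-2 averaged 10.3 ± 2.12 CPM in 3A and 14.5 ± 5.75 CPM in WT (SD, n = 4 each). Other IFT-B genes were level between the strains, such as osm-1 at 4.45 ± 0.587 CPM in 3A and 4.64 ± 0.719 CPM in WT, with an interval of the log2 fold change from -0.63 to 0.49.

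**Figure D3:**
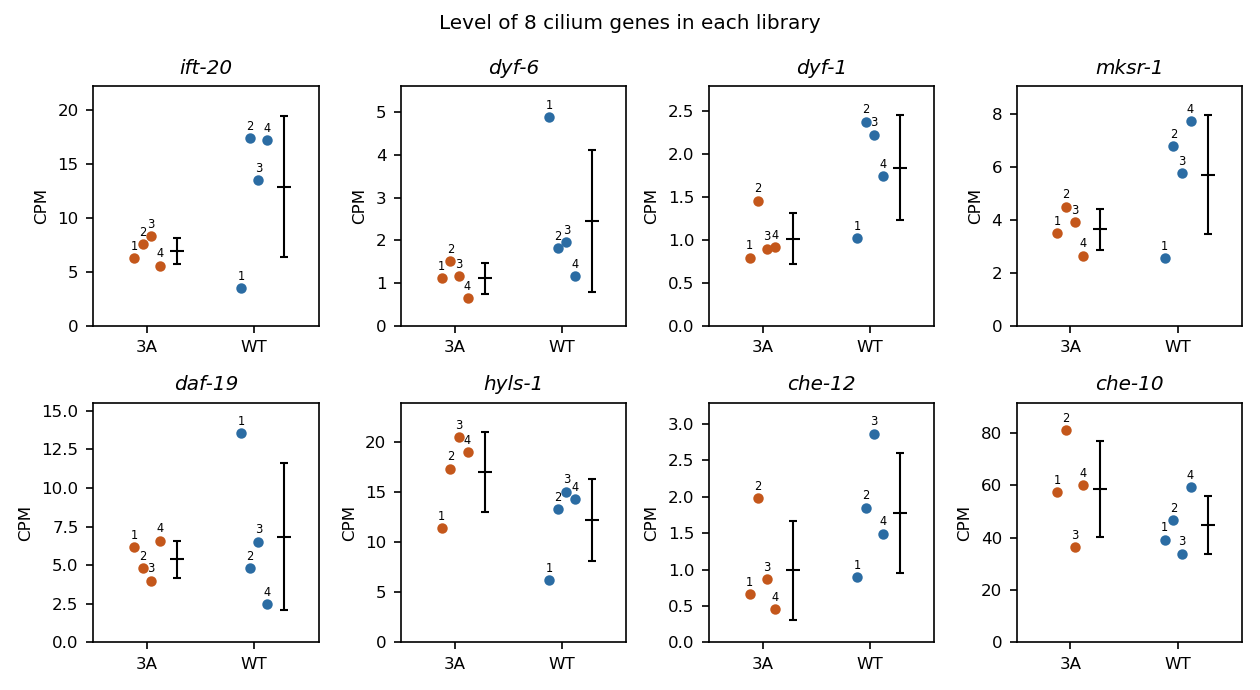
Level (y axis, CPM, from 0) of 8 cilium genes in each 3A (orange, left) and WT (blue, right) library, numbered by replicate; black bars are the group mean ± SD (n = 4). WT replicate 1 is the highest library for dyf-6 (4.88 CPM) and daf-19 (13.5 CPM) and the lowest for ift-20 (3.48 CPM), mksr-1 and hyls-1.

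BBSome genes had log2 fold changes from -0.54 to 0.01, 6 of 7 negative, and none passed the test. bbs-1 had 2.78, 2.34, 2.26 and 3.21 CPM in 3A, against 5.39, 2.58, 2.94 and 2.16 CPM in WT. WT replicate 1 alone was high, and the log2 fold change of -0.32 (SE 0.34, adjusted p of 0.796 by edgeR) became 0.03 without it. bbs-9 had 0.330, 1.67, 1.03 and 0.275 CPM in 3A, against 0.270, 2.06, 1.73 and 0.997 CPM in WT (log2 fold change -0.54, SE 0.64, adjusted p of 0.824 by edgeR). Its lowest library was in WT, and the value was -1.13 without 3A replicate 2, -0.84 without WT replicate 1 and -0.21 without WT replicate 2. bbs-2 had 0.859, 1.24, 1.496 and 0.916 CPM in 3A, against 0.809, 1.28, 2.45 and 0.913 CPM in WT (log2 fold change -0.29, SE 0.42, adjusted p of 0.855 by edgeR), and the value was -0.47 without WT replicate 1 and 0.18 without WT replicate 3. bbs-5 had the highest level per length of the complex, 10.3 ± 3.19 CPM per kb in 3A and 10.5 ± 2.38 CPM per kb in WT (SD, n = 4 each). osm-12, which encodes another BBSome subunit, was almost level at 3.50 ± 0.684 CPM in 3A and 3.47 ± 0.506 CPM in WT.

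Of the 8 transition zone genes 6 had a negative log2 fold change, with a median of -0.36. mksr-1, a second B9 gene, had 3.50, 4.49, 3.92 and 2.66 CPM in 3A, against 2.55, 6.78, 5.77 and 7.72 CPM in WT. As for ift-20, WT replicate 1 lay below all 3A libraries and the other 3 WT libraries above them (log2 fold change -0.63, SE 0.35, adjusted p of 0.591 by edgeR; without WT replicate 1 -0.85, adjusted p of 0.102). nphp-1, a nephrocystin gene, had 1.59, 3.23, 1.46 and 2.01 CPM in 3A, against 2.04, 3.43, 4.07 and 2.82 CPM in WT (log2 fold change -0.57, SE 0.35, adjusted p of 0.634 by edgeR). 3A replicate 2 was the 3A library that reached into the WT range. mks-1 had 0.859, 1.55, 0.764 and 1.37 CPM in 3A, against 1.53, 1.73, 1.89 and 1.08 CPM in WT (log2 fold change -0.47, SE 0.36, adjusted p of 0.709 by edgeR). mks-5, which encodes a scaffold on which the transition zone is assembled, averaged 4.40 ± 0.969 CPM in 3A and 3.93 ± 0.413 CPM in WT (SD, n = 4 each). It begins 3773 bp beyond the end of C09G5.7 on the same strand of chromosome II. C09G5.7, among the most strongly raised genes of the comparison, averaged 17.9 ± 1.48 CPM in 3A and 0.699 ± 0.143 CPM in WT, while the 95% interval of the log2 fold change of mks-5 ran from -0.42 to 0.74. dyf-3 is the other cilium gene with a called gene within 10000 bp, C04C3.4 at 2053 bp, and its interval ran from -1.11 to 0.86. That distance was chosen after the values were seen.

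daf-19, the transcription factor gene, was not called. It had 6.15, 4.81, 3.99 and 6.59 CPM in 3A, against 13.5, 4.82, 6.52 and 2.49 CPM in WT. WT libraries were both the highest and the lowest. The log2 fold change was -0.36 (SE 0.43, adjusted p of 0.824 by edgeR), and it was 0.19 without WT replicate 1. The gene makes isoforms with different roles in and outside ciliated cells, which gene counts do not separate.

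The remaining genes of this group included both of the largest positive values among the 47. hyls-1, which encodes a centriolar protein needed for ciliogenesis, had 11.4, 17.3, 20.4 and 18.96 CPM in 3A, against 6.23, 13.3, 15.02 and 14.3 CPM in WT. Replicate 1 was the lowest library of either strain, and 13 of the 16 pairs of a 3A and a WT library were higher in 3A (log2 fold change 0.48, SE 0.32, adjusted p of 0.655 by edgeR). Without WT replicate 1, its lowest library, hyls-1 was at 0.27. che-10, which encodes the rootletin of the ciliary base, had 57.6, 81.02, 36.3 and 60.2 CPM in 3A, against 39.3, 46.7, 33.9 and 59.3 CPM in WT (log2 fold change 0.39, SE 0.30, adjusted p of 0.704 by edgeR). Per length che-10 had the highest level of this group over the 8 libraries together, although arl-13 was higher in WT, at 8.38 CPM per kb against 6.66 CPM per kb for che-10. che-12, which encodes a HEAT repeat protein of amphid cilia, had 0.661, 1.98, 0.864 and 0.458 CPM in 3A, against 0.899, 1.85, 2.87 and 1.49 CPM in WT (log2 fold change -0.79, SE 0.49, adjusted p of 0.639 by edgeR). 3A replicate 2 was its only 3A library above the lowest WT library, and the value was -1.40 without it and -0.44 without WT replicate 3. The small GTPase gene arl-3 had 11.04, 5.98, 4.99 and 6.14 CPM in 3A, against 15.8, 8.41, 8.38 and 6.89 CPM in WT, with replicate 1 highest in both strains (log2 fold change -0.50, SE 0.34, adjusted p of 0.672 by edgeR). Without WT replicate 1 the value for arl-3 was -0.17. arl-13, a GTPase gene whose human orthologue is mutated in Joubert syndrome, averaged 8.75 ± 2.91 CPM in 3A and 10.6 ± 3.86 CPM in WT (SD, n = 4 each).

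Across libraries the median cilium gene shifted. On the log2(CPM + 0.5) scale, relative to the mean of each gene over the 8 libraries, the median cilium gene lay at -0.19, 0.23, -0.26 and -0.18 in 3A replicates 1 to 4, against -0.24, 0.21, 0.26 and 0.04 in WT replicates 1 to 4. The medians of all genes tested lay between -0.03 and 0.04. TMM scaling brings the typical gene of each library to a common level, so that narrow range is no contrast for the cilium list. 3A replicate 2 was the highest library for 9 of the 47 genes and the lowest for 1, WT replicate 2 the highest for 8 and the lowest for 0, and 3A replicate 4 the highest for 0 and the lowest for 6. WT replicate 1 split the list. Compared with the mean of the other 3 WT libraries, WT replicate 1 was at least 1.5-fold higher for 9 of the 47 genes and at least 1.5-fold lower for 22. Over all genes tested the shares were 29.2% and 34.0%. The 9 were osm-3, osm-5, dyf-3, dyf-6, bbs-1, mksr-2, daf-19, arl-13 and arl-3, and the ratio was highest for dyf-6, at 2.97. The 22 came from every role and included ift-20, bbs-9 and hyls-1, and the ratio was lowest for bbs-9, at 0.169. Subunits of a single complex thus lay on both sides. The steadiest gene was osm-1, whose highest library was 1.51 times its lowest, and the median of that ratio was 3.01 over the 45 genes with a count in every library.

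**Figure D4:**
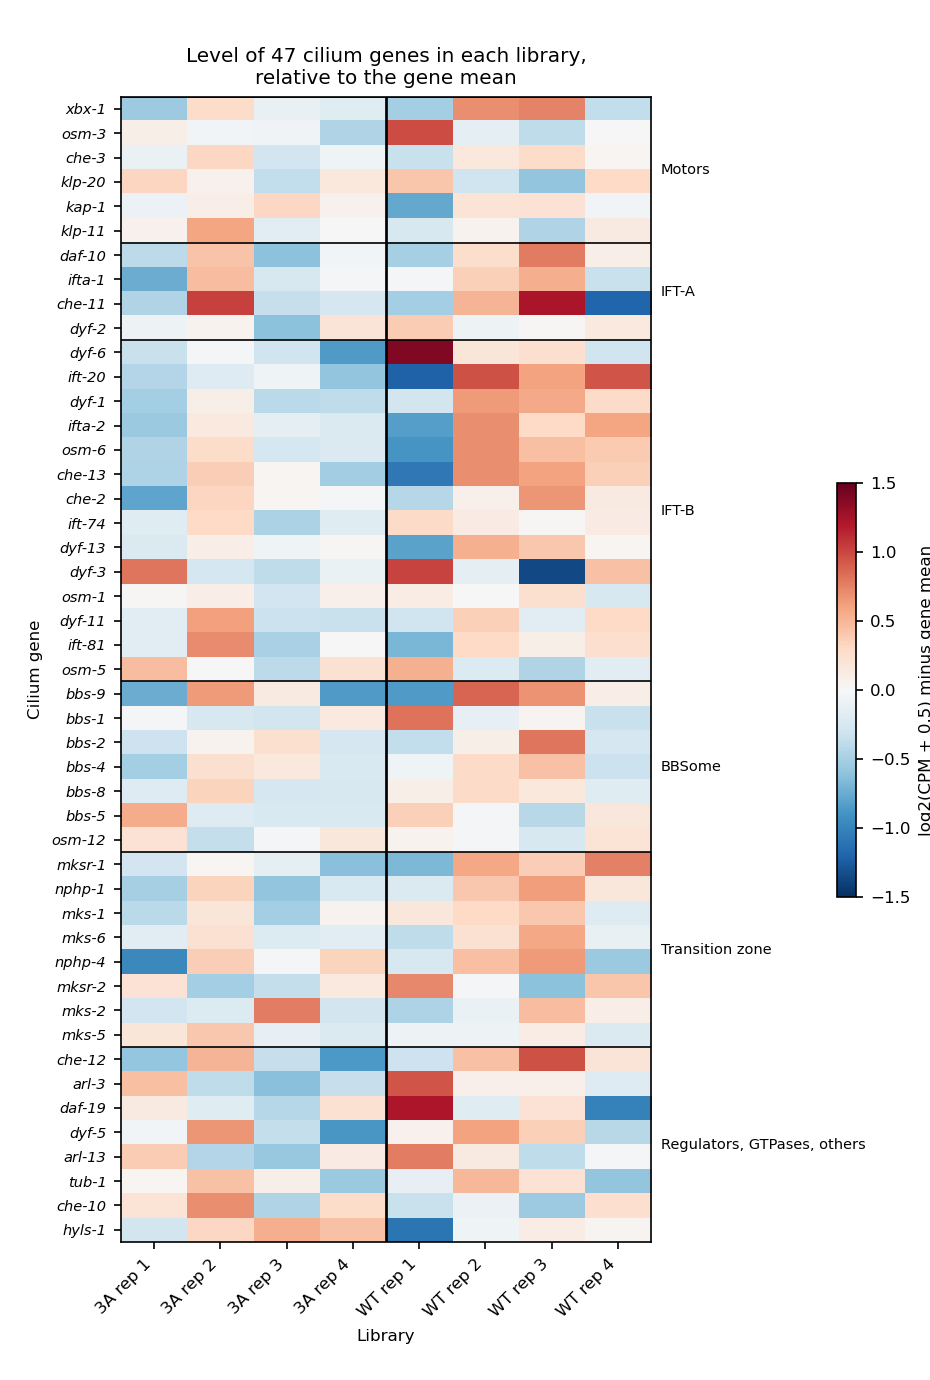
Level of each of the 47 cilium genes (rows, by role) in each library (columns, 3A left of WT), as log2(CPM + 0.5) minus the mean of the gene over the 8 libraries. WT replicate 1 holds the highest level for 11 genes and the lowest for 14, more extremes in all than any other library, and no gene separates the strains.

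The list was also divided by chromosome. The 8 X-linked cilium genes had a median log2 fold change of -0.18 and the 39 autosomal ones a median of -0.29. Over all genes tested the medians were -0.24 for X-linked and -0.06 for autosomal genes. The difference was not tested.

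Of 62 further cilium genes listed, 55 were matched to an identifier and 46 were tested. None was called, and 4, or 8.70%, had an unadjusted p-value under 0.05, all lower in 3A, against 9.75% of all genes tested and 4.03% counting those lower in 3A. In all, 38 of the 46 log2 fold changes were negative with a median of -0.27. arl-6, which encodes a small GTPase that recruits the BBSome to membranes, had 0.661, 0.837, 1.43 and 0.733 CPM in 3A, against 1.83, 1.95, 2.42 and 1.74 CPM in WT. All 4 WT libraries lay above all 4 3A libraries (log2 fold change -1.09, SE 0.35, adjusted p of 0.359 by edgeR). tmem-107, a transition zone membrane protein gene, had 2.25, 1.63, 2.19 and 1.28 CPM in 3A, against 2.37, 3.92, 2.93 and 5.73 CPM in WT, again without overlap (log2 fold change -0.997, SE 0.35, adjusted p of 0.408 by edgeR). These were the only 2 of the 46 without overlap, or 4.35%, against 6.16% of all genes tested and 2.36% counting those lower in 3A.

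Broadly expressed neuronal genes gave another comparison, although only sensory neurons bear cilia and the libraries hold whole embryos. Of 27 such genes 26 were tested, none was called and the median log2 fold change was -0.37. Negative values numbered 21 of 26, or 80.8%, against 78.7% of the 47 cilium genes. Before adjustment 2 neuronal genes fell under 0.05, or 7.69%, both lower in 3A, against the same 9.75% and 4.03% of all genes tested. rab-3, a synaptic vesicle GTPase gene, had 0.793, 1.51, 1.03 and 0.733 CPM in 3A, against 3.09, 2.47, 3.62 and 0.747 CPM in WT (log2 fold change -1.28, SE 0.45, adjusted p of 0.412 by edgeR). WT replicate 4 was within the 3A range. unc-57, the endophilin gene, had 1.32, 1.24, 1.03 and 1.47 CPM in 3A, against 3.63, 1.99, 2.16 and 1.74 CPM in WT, with no overlap (log2 fold change -0.93, SE 0.34, adjusted p of 0.428 by edgeR). It was the only 1 of the 26 without overlap, or 3.85%, against 6.16% of all genes tested and 2.36% counting those lower in 3A. With all 8 libraries the neuronal median lay 0.28 below the median of all genes, and the cilium median 0.20 below it. Without WT replicate 1, where all 27 were tested, the neuronal median was -0.04. The gaps were then 0.02 for the neuronal and 0.20 for the cilium list. Without WT replicate 3 they were 0.33 for the neuronal and 0.10 for the cilium list, so the order depended on the libraries used. The difference between the lists was not tested.

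**Figure D5:**
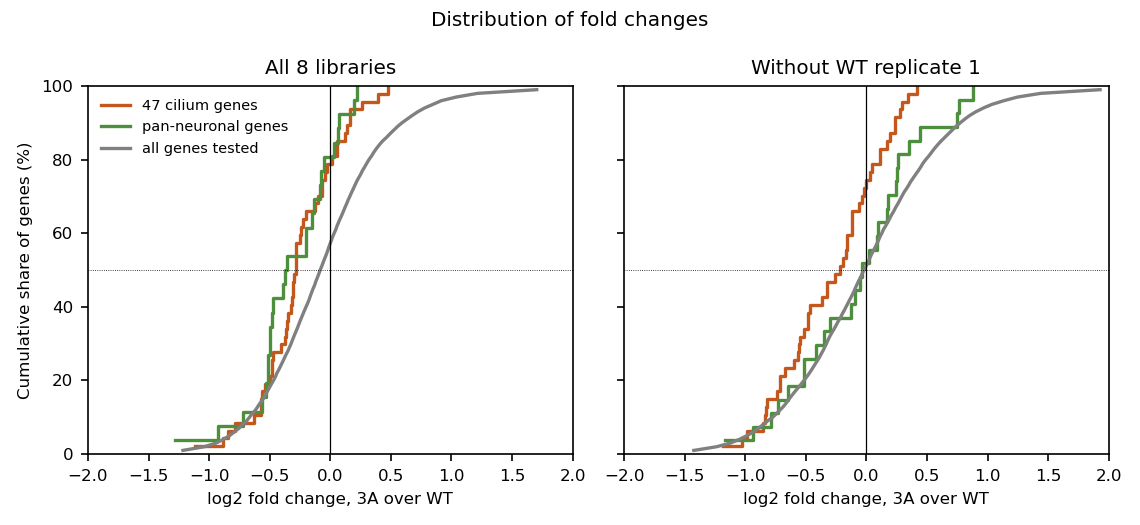
Cumulative share of genes (y axis, %) against the log2 fold change of 3A over WT (x axis) for the 47 cilium genes (orange), the pan-neuronal genes (green) and all genes tested (grey), with all 8 libraries (left) and without WT replicate 1 (right). At 50% the cilium curve lies 0.20 left of the grey curve in both panels, and the green curve moves from a median of -0.37 to -0.04.

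Markers of stage and of other cell types moved between libraries as well. The summed level of 12 markers of ciliated sensory neurons was 19.3 to 21.7 CPM in 3A and 18.7 to 27.1 CPM in WT. Of those 12, 10 averaged under 1 CPM in either strain, among them the ciliary channel genes osm-9 and ocr-2, and 5 of 7 tested were negative. All 16 tested markers of the early embryo had positive log2 fold changes with a median of 0.69, none called, and their summed level was 1910 to 3567 CPM in 3A and 1134 to 2369 CPM in WT. Of these 18 markers, med-1 was at 0 in all 8 libraries and med-2 in all 4 WT libraries. All 11 germline markers were positive with a median of 0.57, at 740 to 2588 CPM summed in 3A and 460 to 1446 CPM in WT. Before adjustment 7 of the 16 early embryo markers, or 43.8%, and 3 of the 11 germline markers, or 27.3%, fell under 0.05 by edgeR. All were higher in 3A, against 725 of the 12664 genes tested that were higher at that threshold. The groups did not overlap for 2 of the 16 and 0 of the 11, against 481 of the 12664 counting those higher in 3A. Markers of body muscle were positive for 2 of 12, of epidermis for 3 of 12, of intestine for 3 of 10 and of amphid glia for 0 of 8 tested, with medians of -0.44, -0.18, -0.23 and -0.50. Summed epidermal markers ranged from 4173 to 12643 CPM in 3A and from 2257 to 19836 CPM in WT, summed muscle markers from 2963 to 5278 CPM in 3A and from 2906 to 7315 CPM in WT. Summed intestinal markers ranged from 298.1 to 690.04 CPM in 3A and from 338 to 1527 CPM in WT, and summed glial markers from 23.4 to 43.9 CPM in 3A and from 29.5 to 47.1 CPM in WT. WT replicate 1 was the highest library for the epidermal, muscle, intestinal, glial and ciliated sensory sums. The lists are named for the stage or cell type their genes are known from, and what set the marker levels in these strains was not tested. The part that embryonic stage or cell composition has in the cilium values was not tested either.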

How the data were processed

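The authors deposited raw counts per WormBase gene for each of 8 stranded poly(A) libraries (3A and WT, 4 each), unnormalised, with 5 closing counters. The submitters' processing notes name fastp, STAR, HTSeq and DESeq2 without versions, and the build WBcel235. The annotation release is not given in the sources used here. The closing counters, 3.32% to 15.5% of reads, name no gene and were left out. They hold reads that fell in no counted gene, at several sites or in overlapping genes. Symbols came from a supplied table, positions and exon lengths from Ensembl release 115 (WBcel235). On the same strand 9 of the 47 genes overlap another annotated gene; for klp-11 this is 97.1% of its exons, but the partner F20C5.11 was not counted in the files.

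In R 4.3.3, edgeR 4.0.16 kept genes with filterByExpr (minimum count 10), scaled by TMM and tested 3A against WT with the quasi-likelihood test and Benjamini-Hochberg adjustment over 12664 genes, called under 0.05. CPM are TMM-scaled. SE is the fold change's size over the square root of F; 95% intervals use the test's degrees of freedom. The limit that a count of 0 allows was taken as 3 counts, which is 0.0229 to 0.275 TMM-scaled CPM by library and covers counting error only. The test was checked on simulated data, drawn gene by gene with the fitted means and dispersions. It called 68 of 100 genes changed by 2 on the log2 scale. Of 100 genes changed by 1 it called 4, so most 2-fold changes were missed. Of 12464 unchanged genes it called 2. Replicates are labelled biological; no 2 agreed within sampling noise (chi-square per degree of freedom at least 60.3). Replicate numbers are shared between strains, but no label says why. Alternatives included DESeq2 1.42.0 and sva 3.50.0.

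Members and lists were chosen with earlier results of these data known. Per-library values are given for daf-19, the 3 genes of each role with the smallest p-value, and the 2 of each other list; the gene highest per length in each role is named. che-10 and the genes named without a full test, C09G5.7 and C04C3.4 among them, were chosen after their values were seen. No sequences are printed.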

Additional observations from a re-analysis of the deposited data

Results flagged for a closer look

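In 94 groups of 4 libraries (47 genes in 3A and in WT), 8 had a highest or lowest library far from the other 3 by Dixon's criterion. Chance gives about 1 in 20 for independent groups of normally distributed values. Genes here share libraries and CPM need not be normal, so that rate is only a guide. Counts were few for some, such as 5 to 12 for che-11 and 3 to 13 for mks-2 in the other 3 3A libraries. In 3A, replicate 2 was far above the others for che-11 (1.82 CPM, others 0.330 to 0.458), dyf-11 (28.2 CPM, others 14.4 to 16.1), bbs-8 (2.70 CPM, others 1.63 to 1.72) and mks-6 (0.765 CPM, others 0.432 to 0.463). Replicate 1 of 3A was far above the others for dyf-3 (64.9 CPM, others 28.4 to 34.5) and bbs-5 (18.9 CPM, others 10.8 to 11.1), and replicate 3 of 3A for mks-2 (1.10 CPM, others 0.264 to 0.311). In WT, replicate 1 was far above the others for arl-3 (15.8 CPM, others 6.89 to 8.41).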

How the results depend on the processing

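No cilium gene was called under 15 of 16 alternatives; 1, ift-20, was called without WT replicate 1, so the count ran from 0 to 1 when single libraries were left out. None of the other cilium or neuronal genes was called under any. Over all genes 47 were called, against 10 scaled by library size alone, 71 without the filter, 169 with DESeq2, 366 with 1 surrogate variable and 87 without replicate 1 of both strains (chosen after seeing the data). Leaving out a library gave 18 to 196: 30 and 18 without 3A replicates 1 and 3, and 196, 18 and 25 without WT replicates 1, 2 and 3. The shared replicate numbers were not taken as pairing. Deviations of same-numbered libraries correlated at 0.57, 0.60, 0.18 and 0.0085, and the same-numbered WT library correlated best for 1 of the 4 3A libraries. With a replicate block 175 genes were called, 0 of the 47 among them. The cilium median ranged from -0.38 to -0.17 when a library was left out and was -0.60 scaled by library size alone, where the median of all genes was -0.40. Cilium genes without overlap numbered 0 to 5 when a library was left out, 1 by library size alone and 7 without replicate 1 of both strains. Over all genes the share without overlap was 6.62% to 17.1%, 2.53% and 22.3% in those settings. Counting those lower in 3A, it was 2.61% to 8.69%, 1.41% and 11.2%. The count of 5, or 10.6%, arose without 3A replicate 2 and without WT replicate 1, with all 5 lower each time. The shares of all genes lower without overlap were then 4.62% and 8.69%. The 1 gene by library size alone was lower, as were 6 of the 7. Of 28 genes with a recomputed value, 21 kept their sign throughout. When a library was left out, log2 fold changes ran from -0.46 to 0.027 for bbs-1, from -0.47 to 0.18 for bbs-2, from -0.27 to 0.11 for bbs-5, from -0.62 to 0.19 for daf-19, from -0.47 to 0.30 for dyf-3, from -0.10 to 0.24 for klp-20 and from -0.54 to 0.11 for osm-3. Among genes that kept their sign, the ranges were -0.79 to -0.17 for arl-3, -1.13 to -0.21 for bbs-9, -1.40 to -0.44 for che-12, -1.13 to -0.13 for daf-10, -0.61 to -0.09 for ifta-1, -0.85 to -0.27 for xbx-1, -0.89 to -0.40 for nphp-1, 0.08 to 0.36 for klp-11 and 0.20 to 0.56 for che-10. Without replicate 1 of both strains daf-19 was at 0.10 and osm-3 at 0.037, with the replicate block dyf-3 was at 0.026, and by library size alone klp-20 was at -0.15. For ift-20 adjusted p ranged from 0.0246 to 0.949. The cause of these changes was not tested. Depth and spread left a 2-fold change in at least 1 direction not excluded for 34 of the 47 genes.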

Other observations

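Summed over the 55 matched further cilium genes, the level was 225 to 249 CPM in the 4 3A libraries and 277 to 281 CPM in the 4 WT libraries, without overlap, while the sum over the 47 genes overlapped at 288 to 408 CPM in 3A and 304 to 406 CPM in WT. The sum over the 55 was not a planned result and was not tested. Of the sums over all gene lists used here, neuronal genes and markers included, it was the only one without overlap. The more abundant of the 55 include ift-43, an IFT-A subunit gene (40.6 ± 4.46 CPM in 3A and 44.8 ± 12.6 CPM in WT), dyrb-1, a dynein light chain gene (29.2 ± 6.79 CPM in 3A and 32.0 ± 3.90 CPM in WT), and tbb-4, a beta-tubulin gene of cilia (22.9 ± 4.12 CPM in 3A and 31.2 ± 11.7 CPM in WT; SD, n = 4 each). None of the 3 was called, and the strains overlapped for each. For example, ift-43 had 37.1 to 46.9 CPM in 3A and 34.1 to 62.2 CPM in WT. These 3 were chosen after their values were seen.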
